A study of Mus musculus with 32 samples.

Results

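MAP kinase phosphatase mRNAs, those of Dusp1, Dusp2, Dusp3, Dusp4, Dusp5, Dusp6 and Dusp16, were followed in total RNA sequencing of BV-2 cells, an immortalised mouse microglial line. They were taken by gene name, with earlier results of these data known, and all 7 were found among the 45706 genes of the table. The cells carried a scramble control or the mimic of 1 of 3 microRNAs, namely miR-146a-5p, miR-29a-3p and miR-7a-5p (written below without the arm), and were given vehicle or 24 h of lipopolysaccharide (LPS) at 10 ng/ml. LPS is a bacterial cell wall component that activates macrophages through TLR4. A mimic is a synthetic RNA that raises the level of its microRNA in the transfected cells. The 8 groups held 4 libraries each, 32 in all, every one from the same BV-2 line. The scramble groups were transfected too and differed from the mimic groups only in the RNA delivered. The labels put the LPS treatment before the transfection, whereas the study's methods put the transfection first in the imaging assay on the same line, and the order for these libraries could not be settled here. The labels and the study's methods also call the line glioblastoma, and the labels give some cultures an age in months of mice, which does not apply to a cell line.

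MAP kinase phosphatases switch off MAP kinases by removing the phosphates from the threonine and the tyrosine of the activation loop. ERK, JNK and p38 carry signals from growth factor receptors and from TLR4 to transcription, and in macrophages p38 and JNK in particular drive the production of inflammatory cytokines. Several phosphatase genes are themselves switched on by MAP kinase activity, so that the enzymes act as negative feedback. Dusp1, Dusp2, Dusp4 and Dusp5 encode nuclear enzymes, Dusp6 encodes a cytoplasmic enzyme selective for ERK, Dusp16 encodes an enzyme that prefers JNK and p38, and Dusp3 encodes a small phosphatase that lacks the kinase-binding domain of the others. The comparisons below ask how LPS and how each mimic changed the mRNA of these enzymes. In bulk libraries, fewer cells that express a gene and less RNA of it per cell cannot be told apart.

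Because a mimic pairs with mRNAs through its seed, the mature sequences and the matching sites in the 3′ UTRs of the 7 genes are shown first. The mature microRNAs are from RefSeq (GRCm38.p6), written 5′ to 3′, with bases 2 to 8, the seed, in capitals.
mmu-miR-7a-5p: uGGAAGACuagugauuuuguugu
mmu-miR-29a-3p: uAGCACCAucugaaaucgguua
mmu-miR-146a-5p: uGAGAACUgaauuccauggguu

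The 3 seeds differ from each other. In the longest annotated 3′ UTR of each gene (GENCODE M21, GRCm38), the complement of a seed was found 3 times. Dusp2 held the miR-29a match TGGTGCT 2 times in a 3′ UTR of 581 bases. Dusp16 held the miR-146a match AGTTCTC once in a 3′ UTR of 2416 bases, followed by an A. The miR-7a match GTCTTCC was found in none of the 7. The sites are given on the mRNA strand with the match in capitals, and each coordinate is that of the 7 matching bases.
Dusp2, chr2:127337935-127337941, plus strand: ctctgataTGGTGCTcttctgag
Dusp2, chr2:127338213-127338219, plus strand: gctgtaatTGGTGCTgaaaagtt
Dusp16, chr6:134716074-134716080, minus strand: atgtctaaAGTTCTCaaagcttc

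Among the longest 3′ UTRs of 20704 protein-coding genes (median length 965 bases), 12% held at least 1 match to miR-7a, 13.1% to miR-29a and 11.2% to miR-146a, on the mRNA strand only. A match is a run of letters, not a measured site of binding. The 3′ UTRs without a match ranged from 690 bases in Dusp1 to 3591 bases in Dusp3.

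The libraries held between 1121816 and 20285665 estimated counts after the decimal marks lost in the deposited table had been restored. Depth moved with the treatment: the 16 vehicle libraries held 1121816 to 9471000 counts and the 16 LPS libraries 2680819 to 20285665, and its part in the results was not tested. The share of counts in small structural RNAs was 6.58% to 11.6% in vehicle scramble and 3.04% to 5.91% in LPS scramble. It overlapped between treatments with miR-29a and miR-146a, and its part was not tested either. Replicates 2, 3 and 4 of vehicle miR-7a held 1121816 to 2292149 counts, and replicate 1 of vehicle miR-146a held 1634256. These miR-7a libraries stood apart in small structural RNAs, with 34.8%, 32.9% and 36.1% of their counts, against 2.82% to 17.6% in the other 29 libraries. Comparisons with that group were therefore also run with its replicate 1 alone, a setting chosen after seeing the data. That setting has 1 library in the group, so few genes can pass in it. It left 113 of 13458 genes called for LPS with miR-7a in place of 803, and 2 of 12436 for miR-7a against scramble in place of 32. The microglia and macrophage markers were present, with 8 of 9 at 1 CPM or more on average (all but Cx3cr1) and a summed level of 1970 to 3280 CPM with vehicle and 1730 to 3020 CPM with LPS. None of the 4 astrocyte and none of the 4 neuron markers reached 1 CPM on average. Mbp of the oligodendrocyte list and Kdr of the endothelial list were among those that did. The summed level of the oligodendrocyte list was 2.47 to 18 CPM with vehicle and 3.84 to 7.45 CPM with LPS, and 1 of its 2 tested genes was called lower with LPS in scramble and none with a mimic. The summed level of the endothelial list was 107 to 224 CPM with vehicle and 220 to 318 CPM with LPS, and its 1 tested gene was called higher with LPS with all 4 transfected RNAs. The part of these markers in the results was not tested. Levels are given in CPM, a gene's counts relative to the library's total, scaled by TMM, a trimmed mean of ratios between libraries.

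Per kilobase of exon, the 7 genes stood at 4 levels. Dusp3 and Dusp4 were highest, at 42.0 and 41.8 CPM per kb over all libraries. Dusp2 followed at 12.5 CPM per kb. Dusp5, Dusp1 and Dusp16 stood at 4.17, 3.90 and 3.64 CPM per kb, and Dusp6 was lowest at 1.06 CPM per kb. Restored counts ran from 131 to 3471 for Dusp3 and from 0 to 96 for Dusp6, which sets how finely each could be measured. Exons of Dusp1 overlap Ergic1 on the opposite strand, those of Dusp3 the antisense gene Gm20659 and those of Dusp5 the antisense gene AC137853.2, and whether strand was used in counting is not given in the sources used here.

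**Figure D1:**
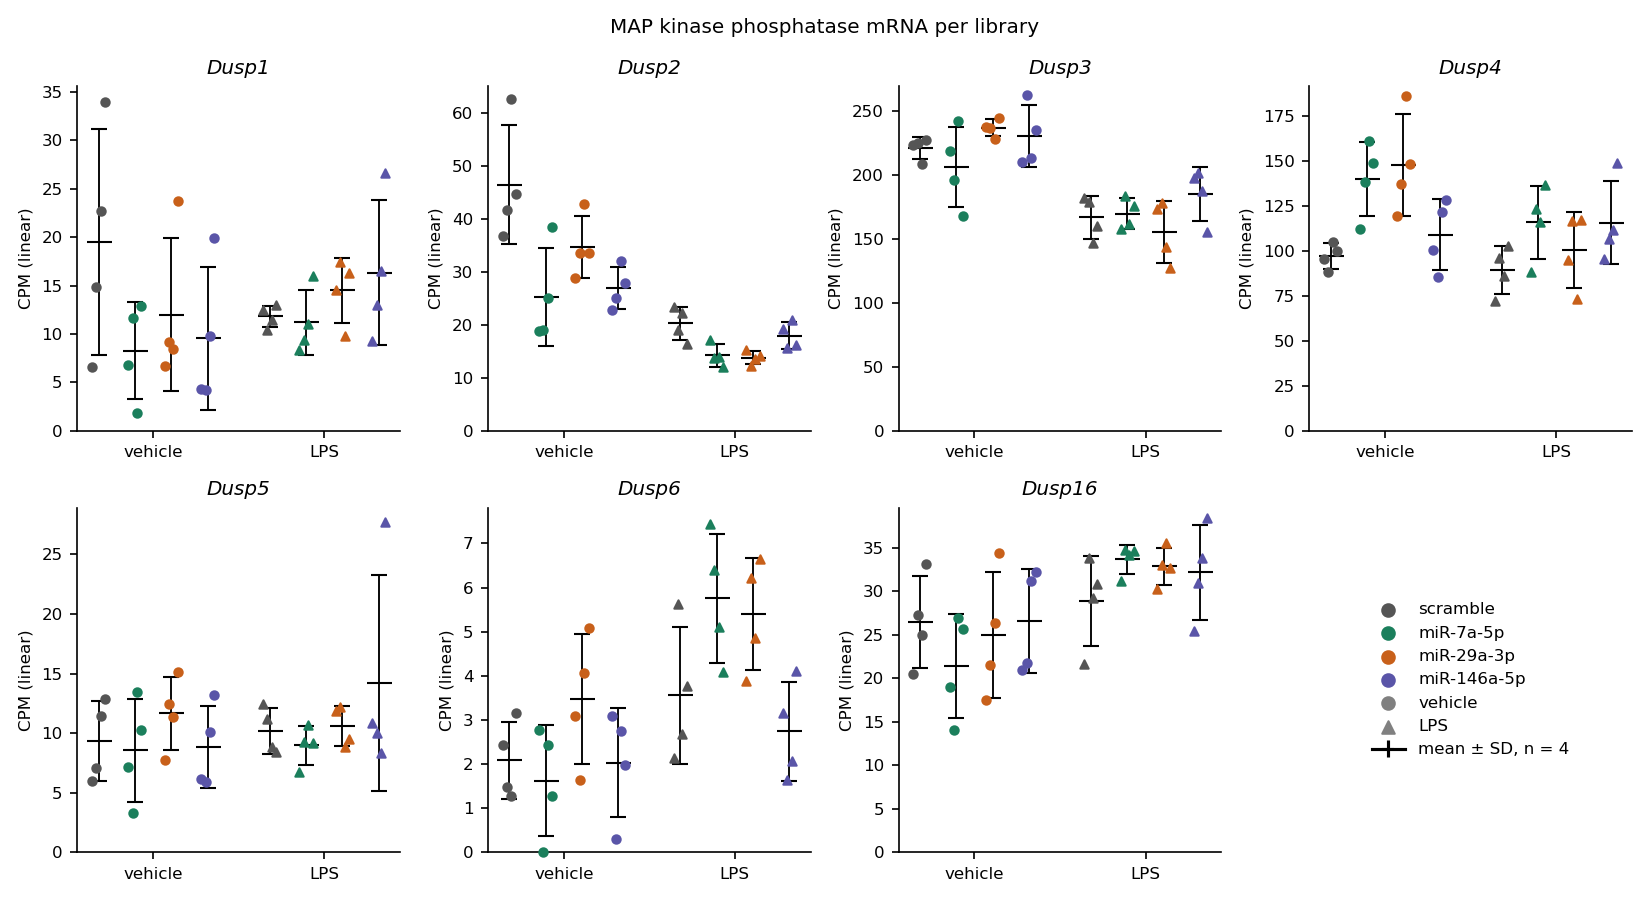
CPM (linear axis from 0) of each gene in all 32 libraries, circles for vehicle and triangles for LPS, coloured by transfected RNA, with the mean and SD of each group of 4 as black bars. Dusp2 and Dusp3 sit lower in the LPS groups, while the 4 vehicle scramble libraries of Dusp1 run from 6.63 to 34 CPM.

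Dusp2, a nuclear phosphatase abundant in activated immune cells, had the largest log2 fold changes with LPS among the members called. With scramble its level was 36.7, 41.7, 62.6 and 44.8 CPM in the 4 vehicle libraries and 23.5, 19, 22.3 and 16.4 CPM in the 4 LPS libraries. The ranges did not overlap, and the fitted level after LPS was 0.437 times that of vehicle, a log2 fold change of -1.19 (SE 0.19, adjusted p = 0.00144). With miR-29a the vehicle libraries stood at 28.8, 33.6, 42.8 and 33.6 CPM and the LPS libraries at 15.2, 12.3, 13.6 and 14.2 CPM. Here too every LPS library lay under every vehicle library, at 0.388 times the vehicle level (log2 fold change -1.37, SE 0.17, adjusted p = 0.000167). These calls, like all adjusted p-values in this text, come from limma with precision weights (voom) and Benjamini-Hochberg adjustment over all genes tested. Leaving out any single library kept both Dusp2 calls, with log2 fold changes from -1.32 to -1.06 for scramble and from -1.45 to -1.26 for miR-29a.

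With the other mimics the difference in Dusp2 was smaller and did not pass the test. With miR-7a the vehicle libraries stood at 18.8, 19.1, 25 and 38.6 CPM and the LPS libraries at 17.1, 13.8, 14 and 12 CPM, a log2 fold change of -0.69 (SE 0.23, adjusted p = 0.103). Taken against replicate 1 of vehicle miR-7a alone, assumed to vary like the other libraries, that log2 fold change was -0.43 (adjusted p = 0.623). With miR-146a the vehicle libraries stood at 22.9, 25, 32 and 28 CPM and the LPS libraries at 19.2, 15.6, 20.9 and 16.2 CPM, a log2 fold change of -0.62 (SE 0.18, adjusted p = 0.0726). The ranges of vehicle and LPS did not overlap in either. Whether a mimic altered the LPS difference was tested as an interaction, in which Dusp2 gave log2 values of 0.52 (95% interval -0.12 to 1.15, adjusted p = 0.930) for miR-7a, -0.15 (-0.68 to 0.37, adjusted p = 0.950) for miR-29a and 0.58 (0.04 to 1.12, adjusted p = 0.410) for miR-146a. With replicate 1 alone the miR-7a interaction was 0.76 (adjusted p = 0.999). None passed, so the LPS differences in Dusp2 were not shown to differ between transfected RNAs.

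Dusp3, which acts on ERK and JNK, had, with Dusp4, the highest level per kilobase, and it fell with LPS in the presence of miR-29a. Its level there was 238, 237, 228 and 245 CPM with vehicle against 173, 178, 144 and 127 CPM with LPS, groups that did not overlap. The log2 fold change was -0.64 (SE 0.13, adjusted p = 0.00398), and it stayed called without any single library, between -0.70 and -0.54. With scramble the levels were 223, 225, 208 and 228 CPM with vehicle and 182, 179, 147 and 160 CPM with LPS. These did not overlap either, and the log2 fold change of -0.39 (SE 0.13) missed the threshold, with an adjusted p of 0.0547. Same-numbered libraries of the scramble groups deviated together, and with the replicate number as a block the adjusted p was 0.0283, in a fit that called 25.5% of all genes. The log2 fold changes with miR-7a and miR-146a were -0.34 (adjusted p = 0.186) and -0.32 (adjusted p = 0.205), and against replicate 1 of vehicle miR-7a alone the first was -0.37 (adjusted p = 0.550).

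Dusp4, a nuclear phosphatase induced by ERK signalling, fell with LPS in the miR-29a groups. It stood at 120, 138, 186 and 148 CPM with vehicle and at 95.3, 117, 73.2 and 118 CPM with LPS, without overlap, a log2 fold change of -0.59 (SE 0.18, adjusted p = 0.0308). This call rested on single libraries: it was lost without replicate 3 (-0.47, adjusted p = 0.107) or 4 (-0.58, adjusted p = 0.0664) of vehicle miR-29a, and without replicate 1 (-0.57, adjusted p = 0.0691) or 3 (-0.43, adjusted p = 0.0951) of LPS miR-29a. With miR-7a and miR-146a the values were -0.28 (adjusted p = 0.431) and 0.05 (adjusted p = 0.921), and against replicate 1 of vehicle miR-7a alone the former was 0.02 (adjusted p = 0.987). With scramble the log2 fold change was -0.11 (SE 0.15, adjusted p = 0.625), and the interaction of miR-29a and LPS was -0.47 (95% interval -0.96 to 0.02, adjusted p = 0.761).

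Dusp1, Dusp5, Dusp6 and Dusp16 did not pass the LPS test with any transfected RNA. Dusp1, an immediate-early gene whose product turns off p38 and JNK, spread widely in vehicle scramble, with 6.63, 14.8, 22.6 and 34 CPM, against 12.4, 10.4, 11.4 and 13 CPM after LPS. Its log2 fold change of -0.52 (SE 0.39, adjusted p = 0.381) turned on 1 library, since it was -1.03 (adjusted p = 0.0158) without replicate 1 of vehicle scramble and -0.06 (adjusted p = 0.924) without replicate 4. In the mimic groups the values for Dusp1 were 0.76 for miR-7a, 0.20 for miR-29a and 0.62 for miR-146a, with adjusted p-values of 0.375, 0.697 and 0.490. These too turned on single libraries: without 1 of them the value ran from 0.34 to 0.94 for miR-7a, from -0.0026 (without replicate 1 of vehicle miR-29a) to 0.76 (without its replicate 4) for miR-29a and from 0.23 to 1.08 for miR-146a. Against replicate 1 of vehicle miR-7a alone it was 0.67 (adjusted p = 0.614). Dusp5, a nuclear phosphatase specific for ERK, gave log2 fold changes from -0.21 to 0.28 with adjusted p-values of 0.525 to 0.841. Its direction turned with single libraries, from 0.09 to -0.16 with scramble (without replicate 1 of vehicle scramble) and from 0.19 to -0.02 with miR-7a (without replicate 2 of vehicle miR-7a). With replicate 1 of vehicle miR-7a alone the latter was 0.31 (adjusted p = 0.807).

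Dusp6, the cytoplasmic ERK phosphatase, had higher means after LPS in all 4 settings but low counts. With miR-7a it stood at 2.76, 0, 2.44 and 1.28 CPM with vehicle and at 7.44, 6.39, 5.10 and 4.08 CPM with LPS, and the vehicle values rest on 15, 0, 4 and 1 counts. The count of 0 allows a level of up to 2.48 CPM (3 counts in that library, counting error only). The groups did not overlap, but 3 of the 4 vehicle libraries are those that stand apart, and the fitted log2 fold change of 1.57 (SE 0.56, adjusted p = 0.125) was 0.95 against replicate 1 alone (adjusted p = 0.546). With scramble, miR-29a and miR-146a it was 0.75, 0.53 and 0.64, with adjusted p-values of 0.193, 0.241 and 0.636. The miR-146a value turned to -0.07 (adjusted p = 0.963) without replicate 2 of vehicle miR-146a. Dusp16 stood at 19, 14.1, 26.9 and 25.7 CPM with vehicle miR-7a and at 31.2, 34.8, 34.1 and 34.6 CPM with LPS miR-7a. Those groups did not overlap, yet the log2 fold change of 0.69 (SE 0.21, adjusted p = 0.0652) missed the threshold. Without replicate 1 of LPS miR-7a it was 0.74 (adjusted p = 0.0471), and against replicate 1 of the vehicle group alone 0.82 (adjusted p = 0.275). Elsewhere Dusp16 gave 0.18 with scramble, 0.36 with miR-29a and 0.17 with miR-146a, with adjusted p-values of 0.537, 0.192 and 0.699. Without 1 library these values ran from 0.04 to 0.32, from 0.21 to 0.57 and from 0.06 to 0.29.

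**Figure D2:**
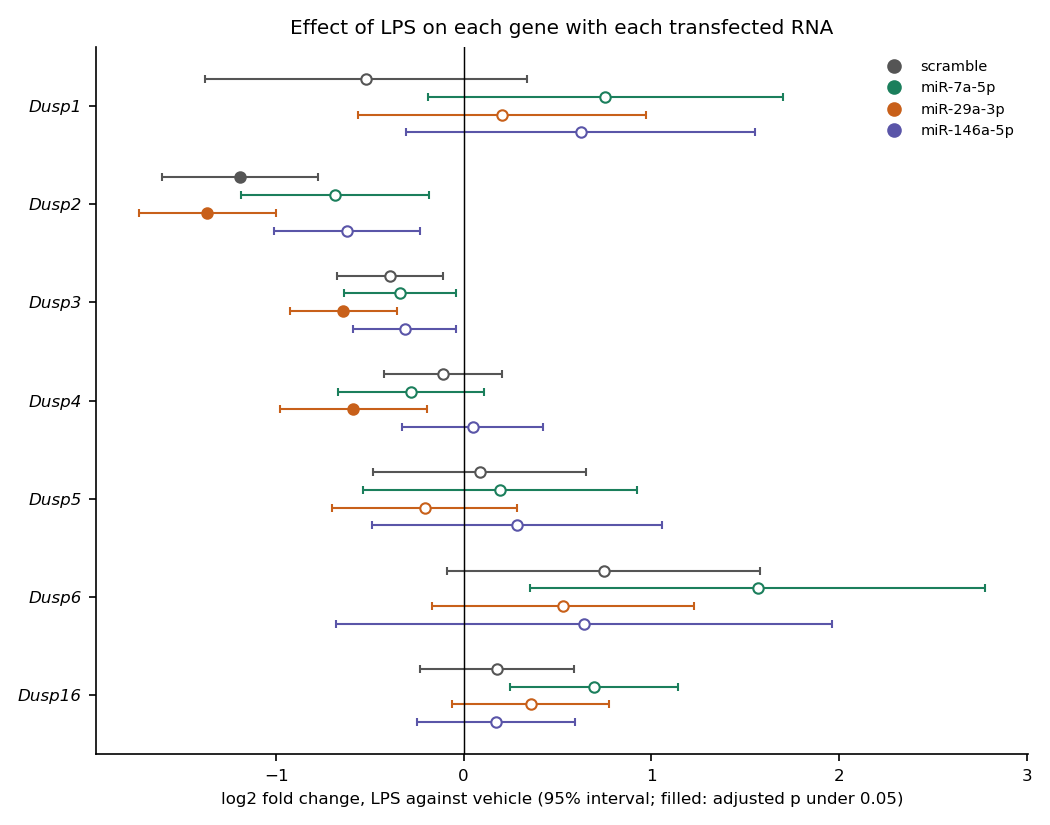
Log2 fold change of LPS against vehicle (horizontal axis) for each gene with each of the 4 transfected RNAs; bars are 95% intervals and filled points have an adjusted p under 0.05. Dusp2 is filled for scramble (-1.19) and miR-29a (-1.37), and Dusp3 (-0.64) and Dusp4 (-0.59) for miR-29a only, a call pattern whose differences between transfected RNAs did not pass the interaction tests.

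Counted over the 7 genes, LPS lowered 1 with scramble and 3 with miR-29a, and raised none. The background was 18.3% of 12195 genes called with scramble (8.55% lower) and 26.7% of 12142 genes with miR-29a (13.9% lower). Single libraries moved the genes called. The 2227 with scramble became 1138 without replicate 4 of LPS scramble and 2939 without replicate 1 of vehicle scramble. The 803 with miR-7a became 483 without replicate 3 of vehicle miR-7a and 889 without replicate 1 of LPS miR-7a. The 3246 with miR-29a became 2218 without replicate 3 of vehicle miR-29a and 3692 without replicate 2 of LPS miR-29a. The 541 with miR-146a became 281 (without replicate 3 of vehicle miR-146a) to 499. With miR-7a no member was called, against 6.8% of 11811 genes, and 4 of 7 had an unadjusted p under 0.05, against 20.4% of genes. With miR-146a no member was called, against 4.5% of 12010 genes, and 2 of 7 had an unadjusted p under 0.05, against 18.5%. The median log2 fold change of the members was -0.11, 0.19, -0.21 and 0.17 with scramble, miR-7a, miR-29a and miR-146a, beside 0.01, 0.02, -0.01 and -0.02 over all genes.

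The mimics were then compared with scramble at each treatment. The 3 comparisons at a treatment share their 4 scramble libraries, so their values stand side by side and are not independent. In vehicle cells no member passed with any mimic, in a background of 0.29% of 11019 genes for miR-7a, 0.0259% of 11575 for miR-29a and 2.35% of 11696 for miR-146a. At an unadjusted p under 0.05 stood 2 of the 6 members tested for miR-7a, 1 of 7 for miR-29a and 1 of 7 for miR-146a, against 12.8%, 10.6% and 25.4% of genes. These shares over all genes moved with single libraries: the 32 genes called for miR-7a became 13 to 221 without 1 library (221 without replicate 1 of vehicle miR-7a), and the 275 for miR-146a became 1 without replicate 3 of vehicle miR-146a and 1255 without replicate 1 of vehicle scramble. The 3 genes called for miR-29a became 2 to 17 (17 without replicate 1 of vehicle scramble). After LPS no member passed either, in a background of 3.06% of 12945 genes, 5.2% of 13162 and 2.43% of 12537 for the miR-7a, miR-29a and miR-146a mimics. At an unadjusted p under 0.05 stood 2, 1 and 0 of 7, against 17.6%, 21.5% and 17.6% of genes. Without replicate 4 of LPS scramble the genes called fell from 396 to 75, from 685 to 207 and from 305 to 33.

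Dusp2, which holds 2 miR-29a seed matches and none for the other mimics, had lower means than scramble with every mimic at both treatments. It was also the lower in 4 of 4 same-numbered pairs in each of these comparisons. In vehicle cells its log2 fold change was -0.39 (SE 0.20, adjusted p = 0.5) with miR-29a, and the libraries quoted above overlapped those of scramble. The values with the mimics that have no match were larger in size, -1.01 (SE 0.26, adjusted p = 0.145) with miR-7a and -0.71 (SE 0.20, adjusted p = 0.0674) with miR-146a. Against replicate 1 of vehicle miR-7a alone, the first of these was -1.27 (adjusted p = 0.984). Without replicate 1 of vehicle scramble, the miR-146a value was -0.81 (adjusted p = 0.0289). After LPS, Dusp2 gave -0.51 (SE 0.16, adjusted p = 0.0863) with miR-29a, whose libraries all lay under those of scramble, -0.48 (SE 0.17, adjusted p = 0.147) with miR-7a and -0.09 (SE 0.17, adjusted p = 0.819) with miR-146a. Same-numbered libraries deviated together in these 3 comparisons, and with the replicate number as a block the adjusted p was 0.0496 for miR-29a and 0.0341 for miR-7a, where 10.7% and 9.25% of all genes were called. Dusp16, with its miR-146a match, gave 0.04 (95% interval -0.43 to 0.51, adjusted p = 0.923) in vehicle cells and 0.05 (-0.29 to 0.40, adjusted p = 0.896) after LPS with that mimic.

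Dusp4 had higher means than scramble with every mimic. In vehicle cells scramble stood at 95.9, 88.2, 105 and 100 CPM. The miR-7a libraries stood at 112, 138, 161 and 149 CPM and those of miR-29a at the values quoted above, and neither overlapped scramble. The log2 fold changes were 0.52 (SE 0.17, adjusted p = 0.249) and 0.58 (SE 0.16, adjusted p = 0.264), and neither passed. Against replicate 1 of vehicle miR-7a alone the first was 0.21 (adjusted p = 0.984). With miR-146a the value was 0.15 (adjusted p = 0.596). After LPS scramble stood at 72.2, 96.3, 86.3 and 103 CPM, against 88.5, 123, 116 and 137 CPM with miR-7a and 95.9, 107, 112 and 149 CPM with miR-146a. Those ranges overlapped, but within each replicate number the mimic was the higher, in 4 of 4 pairs for both. The log2 fold changes were 0.34 (SE 0.16, adjusted p = 0.280) and 0.31 (SE 0.15, adjusted p = 0.323), and with the replicate number as a block the adjusted p was 0.0259 and 0.0436, where 9.25% and 10.7% of genes were called. With miR-29a the value after LPS was 0.13 (adjusted p = 0.686).

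**Figure D3:**
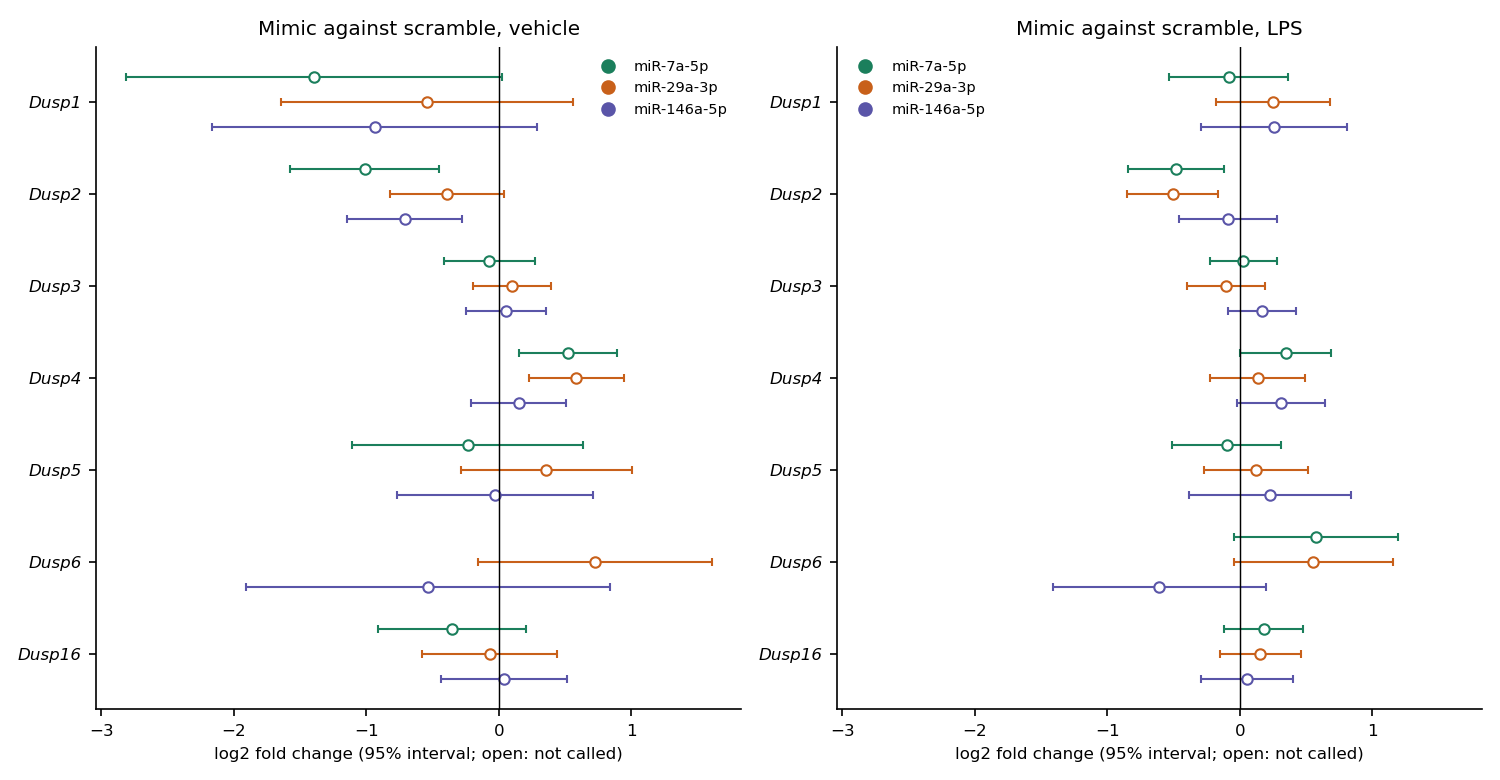
Log2 fold change of each mimic against scramble (horizontal axis), left in vehicle cells and right after LPS; bars are 95% intervals and open points were not called. All points are open; the Dusp2 points lie left of 0 and the Dusp4 points right of 0 in both panels, and Dusp6 with miR-7a in vehicle cells is absent because its counts were too low to test.

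The other members gave no call against scramble. Dusp1 had values of -1.40, -0.54 and -0.94 with miR-7a, miR-29a and miR-146a in vehicle cells, with standard errors of 0.66, 0.51 and 0.57 and adjusted p-values of 0.401, 0.739 and 0.316. Without 1 library they ran from -1.90 to -0.95, from -1.06 to -0.10 and from -1.42 to -0.46, the smallest in size in each case without replicate 4 of vehicle scramble. With replicate 1 of vehicle miR-7a alone, the values against scramble were -1.29 for Dusp1, -0.01 for Dusp3, -0.33 for Dusp5 and -0.46 for Dusp16. For Dusp1 after LPS, where scramble spread less, the values with miR-7a, miR-29a and miR-146a were -0.09, 0.25 and 0.26. Their standard errors were 0.20, 0.20 and 0.25 and their adjusted p-values 0.871, 0.502 and 0.643. Without 1 library they ran from -0.29 to 0.02, from 0.10 to 0.47 and from 0.10 to 0.50. With the replicate number as a block the miR-146a value was 0.51 (adjusted p = 0.211). Dusp3 stayed within -0.10 and 0.16 in all 6 comparisons, with adjusted p-values of 0.513 to 0.937. Dusp5 ranged from -0.24 to 0.36, with adjusted p-values from 0.702 to 0.968, and its value with miR-7a in vehicle cells turned from -0.24 to 0.01 without replicate 4 of vehicle scramble. Dusp6 was not tested for miR-7a in vehicle cells because of low counts (1.62 ± 1.25 CPM against 2.09 ± 0.88 CPM in scramble, SD, n = 4). Its other values were 0.72 and -0.53 in vehicle cells with miR-29a and miR-146a, and 0.58, 0.55 and -0.61 after LPS with miR-7a, miR-29a and miR-146a, with adjusted p-values of 0.271 to 0.623. Without replicate 2 of vehicle miR-146a, the vehicle value for that mimic turned from -0.53 to 0.19 (adjusted p = 0.816). Dusp16 ranged from -0.35 to 0.18, with adjusted p-values from 0.547 to 0.940.

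In the 3 interaction tests no member passed. The background was 0.0747% of 12046 genes for miR-7a, 0.0409% of 12218 for miR-29a and 0% of 12248 for miR-146a. Single libraries moved these too: the 9 genes called for miR-7a became 115 without replicate 1 of vehicle miR-7a, the 5 for miR-29a became 1 without replicate 4 of LPS scramble or of LPS miR-29a, and the 0 for miR-146a became 86 without replicate 1 of vehicle scramble. At an unadjusted p under 0.05 stood 0, 0 and 1 of 7 members, beside 5.37%, 6.64% and 11.3% of genes. Dusp1 had the largest value in each test, 1.29 (95% interval -0.16 to 2.74, adjusted p = 0.930) for miR-7a, 0.75 (-0.48 to 1.98, adjusted p = 0.8705) for miR-29a and 1.18 (-0.17 to 2.53, adjusted p = 0.493) for miR-146a. Without 1 library these ran from 0.80 to 1.81, from 0.28 to 1.30 and from 0.68 to 1.68. With the replicate number as a block the miR-146a value was 1.67 (SE 0.46, adjusted p = 0.112). The widest interval was that of Dusp6 with miR-146a, from -1.65 to 1.48 on the log2 scale, and the narrowest was that of Dusp3 with miR-146a, from -0.27 to 0.43.

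Ordered by group mean, the 8 groups formed a descending series for each gene in which the ranges of neighbours overlapped in 49 of 49 neighbouring pairs. The step between neighbouring means was within the larger of their SDs in 44 pairs and at most 1.48 times it in the other 5, of which 3 were in Dusp2, 1 in Dusp4 and 1 in Dusp6. From the first to the last group the mean fell 3.36-fold for Dusp2, from 46.4 ± 11.3 CPM (vehicle scramble) to 13.8 ± 1.2 CPM (LPS miR-29a), and 3.55-fold for Dusp6, from 5.75 ± 1.47 CPM (LPS miR-7a) to 1.62 ± 1.25 CPM (vehicle miR-7a). For Dusp1 it was 2.36-fold, from 19.5 ± 11.7 CPM (vehicle scramble) to 8.27 ± 5.02 CPM (vehicle miR-7a). Vehicle miR-7a includes the 3 libraries that stand apart, and its replicate 1 stood at 2.76 CPM for Dusp6 and 6.81 CPM for Dusp1. Dusp5 (1.66-fold), Dusp4 (1.65-fold), Dusp16 (1.57-fold) and Dusp3 (1.52-fold) varied least between groups. In Dusp2 and Dusp3 the 4 vehicle groups took the first 4 places and the 4 LPS groups the last 4, and in Dusp16 the order was the opposite, with the 4 LPS groups first. These orders use the same libraries as the tests above and are descriptions.

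The genes differed in how far replicates of a group scattered. The SD of log2(CPM + 0.5) within groups was 0.757 for Dusp1, larger than in 94.6% of the 1691 genes of like level, whose median was 0.387. Dusp3 was the steadiest at 0.154, under the median of 0.231 for its level and larger than in 8.22% of 815 genes. Dusp2 also lay under the median for its level (0.268 beside 0.316, larger than in 27.7% of genes) and Dusp5 above it (0.511 beside 0.407, larger than in 76% of genes). Dusp4 (0.25 beside 0.24), Dusp16 (0.291 beside 0.299) and Dusp6 (0.696 beside 0.647) lay nearer the middle, larger than in 54.3%, 45.6% and 61.6% of genes.

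Part of that scatter followed the replicate number. For Dusp16 the number took up 57.6% of the variance within groups, for Dusp1 47% and for Dusp4 44.3%, beside medians of 31.8%, 24.7% and 39% for genes of like level. Dusp2 (23.6% beside 30.5%) and Dusp3 (25.6% beside 39.9%) lay under theirs, and Dusp5 (26.5% beside 24.4%) and Dusp6 (22.5% beside 17.9%) lay above. Dusp1 was above its group mean in all 8 libraries numbered 4, by 0.75 on the log2 scale on average, and so was Dusp4, by 0.19. Dusp4 and Dusp16 were below their group mean in all 8 libraries numbered 1, with mean deviations of -0.21 and -0.27. Dusp2 was below its group mean in all 8 libraries numbered 2 (mean -0.13).

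**Figure D4:**
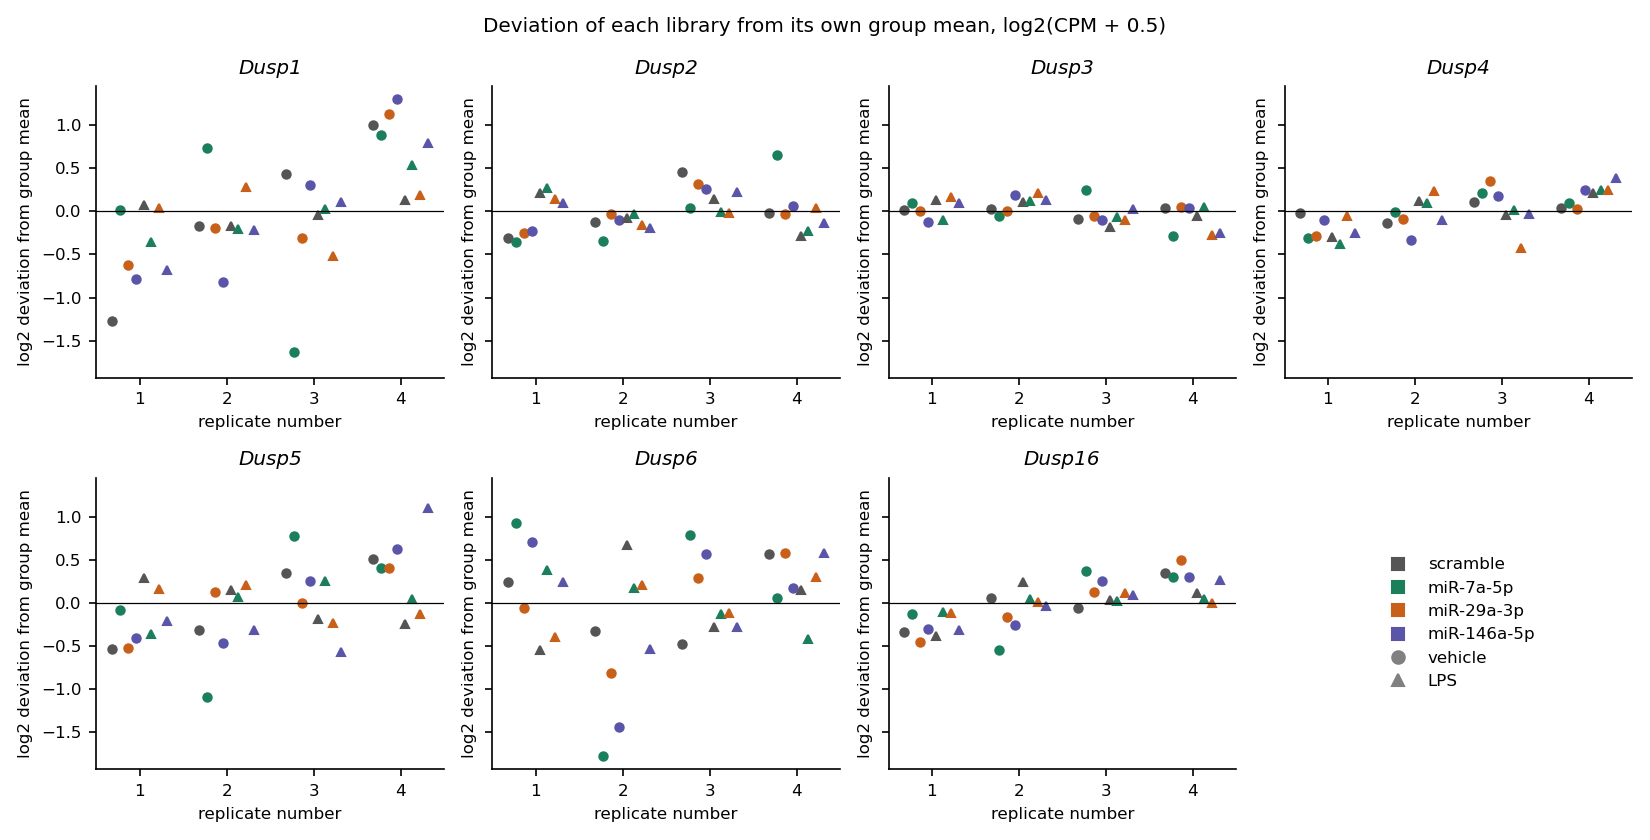
Deviation of each library from the mean of its own group on the log2(CPM + 0.5) scale (vertical axis) by replicate number (horizontal axis; a name, not an order), circles for vehicle and triangles for LPS. The 8 points numbered 4 all lie above 0 for Dusp1 and Dusp4, and the 8 points numbered 1 all lie below 0 for Dusp4 and Dusp16.

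The genes whose pattern was most like each member's were sought among 9843 genes by Pearson correlation of log2(CPM + 0.5) over the 32 libraries, which share groups, depth and replicate numbers. For Dusp1 they were Spry2 (r = 0.849), an inhibitor of receptor tyrosine kinase signalling to ERK, Nudt18 (0.755) and Ppt2 (0.714). With the group means removed, the correlation of Dusp1 with Spry2 was 0.844. For Dusp2 they were Ech1 (0.907), Rpsa (0.881), a protein of the small ribosomal subunit, and Serf2 (0.880), and within groups these fell to 0.584, 0.400 and 0.444. For Dusp3 they were the vitamin C transporter gene Slc23a2 (0.887), Tifab (0.871) and Slc13a3 (0.870). Dusp4 was most like Snx12 (0.699), Ldhd (0.688) and Mical2 (0.677), and Dusp5 most like Traf3ip2 (0.711), Vamp2 (0.684) and Aup1 (0.658). Dusp6 was most like Taf4b (0.783), Arel1 (0.778) and the noncoding RNA gene Ftx (0.766), and Dusp16 most like Fbxw17 (0.815), Slc15a3 (0.795) and Lrrc27 (0.774). Among the members themselves, the pair with the highest correlation within groups was Dusp5 and Dusp16 (0.690), followed by Dusp4 and Dusp16 (0.546). Dusp2 and Dusp3 correlated at 0.620 over all libraries and at -0.299 within groups.

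The rest of the pathway was read from lists of genes. Of the other MAP kinase phosphatases (Dusp7, Dusp8, Dusp9 and Dusp10), Dusp7 fell with LPS in the miR-29a groups, from 87.8 to 55.8 CPM (log2 fold change -0.68, adjusted p = 0.00666), and none of the 2 or 3 tested passed in any other pairwise comparison. No MAP kinase passed in any of the 10 pairwise comparisons, with 6 of 9 tested in each. With the replicate number as a block, 1 passed in each of 3 comparisons, Mapk3 (ERK1) for LPS with miR-29a (log2 fold change without the block -0.40, blocked adjusted p = 0.0144) and for miR-146a against scramble after LPS (0.46, 0.0322), and Mapk9 (JNK2) for miR-29a against scramble after LPS (0.36, 0.04825). In that order, the blocked fits called 37.8%, 10.7% and 10.7% of all genes. Of the 7 MAP kinase kinases, 2 fell with LPS in the miR-29a groups, Map2k6 (-0.79, adjusted p = 0.0283) and Map2k3 (-0.67, adjusted p = 0.0402), both of which activate p38, where 13.9% of all genes were lower. With the block Map2k6 was lost (adjusted p = 0.0539) and Map2k2, which activates ERK, was gained (0.0209), and with scramble Map2k3 was gained (0.0485). Over all genes the blocked fits called 19.7% lower with miR-29a and 12.6% lower with scramble. Of the 11 MAP kinase kinase kinases, LPS raised Braf, which acts on the ERK branch, with scramble (0.58, adjusted p = 0.0147) and with miR-29a (0.54, adjusted p = 0.0175), and lowered Map3k11, which acts on the JNK branch (-0.52, adjusted p = 0.04998, and -0.53, adjusted p = 0.0482). Map3k8, which activates ERK downstream of TLR4, rose with LPS in the miR-29a groups (0.83, adjusted p = 0.0123). Thus 1 of 11 was higher and 1 lower with scramble, where 9.71% and 8.55% of all genes were, and 2 were higher and 1 lower with miR-29a, where 12.8% and 13.9% were.

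Of the 23 immediate-early and ERK-responsive genes, 16 were tested with scramble and LPS lowered 2 and raised 1, with a list median of 0.12 beside 0.01 over all genes, of which 8.55% were lower and 9.71% higher. Egr2, an early growth response factor, fell from 51.6 to 11.5 CPM (-2.32, adjusted p = 7.79e-05), Egr3 from 13.7 to 4.52 CPM (-1.61, adjusted p = 0.00375), and Myc rose from 3.48 to 15.9 CPM (2.11, adjusted p = 0.00106). Egr2 also fell with miR-7a (-1.53, adjusted p = 0.00113), miR-29a (-2.35, adjusted p = 1.43e-05) and miR-146a (-0.98, adjusted p = 0.0114). With miR-7a and miR-146a 1 gene each rose, Fos with miR-7a (1.69, adjusted p = 0.0423) and Myc with miR-146a (1.95, adjusted p = 0.0137). Over all genes 2.82% were higher and 3.98% lower with miR-7a, and 2.91% higher and 1.59% lower with miR-146a. With miR-29a 5 of 16 fell and 1 rose, among them Egr3, Ier2 (-0.65, adjusted p = 0.00365) and Myc (1.51, adjusted p = 0.00210), where 13.9% of all genes were lower and 12.8% higher. After LPS, miR-7a lowered 3 of 17 against scramble, Ier2 (-0.91, adjusted p = 0.0158), Egr3 (-2.27, adjusted p = 0.0204) and Junb (-0.92, adjusted p = 0.0445), and raised Ccnd1 (0.67, adjusted p = 0.0293), whereas miR-146a lowered Ccnd1 (-0.88, adjusted p = 0.0333) and miR-29a lowered Myc (-0.99, adjusted p = 0.0345). Over all genes 1.32% were lower and 1.74% higher with miR-7a in that comparison, and 1.61% were lower with miR-146a and 2.89% with miR-29a.

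Of the 11 kinases and mRNA-binding proteins that act downstream of p38 and ERK, all were tested, and LPS lowered 3 with scramble, 4 with miR-29a and 1 with miR-7a (Mapkapk3, -0.77, adjusted p = 0.0114). Mknk2, a kinase of the translation factor eIF4E, fell from 355 to 190 CPM with scramble (-0.88, adjusted p = 0.00483), Mapkapk3, a kinase activated by p38, from 111 to 65.5 CPM (-0.73, adjusted p = 0.0137), and Zfp36l1, which promotes decay of AU-rich mRNAs, from 203 to 137 CPM (-0.57, adjusted p = 0.0415). All 3 fell with miR-29a too, together with Mknk1 (-0.68, adjusted p = 0.00424). Over all genes 8.55% were lower with scramble, 13.9% with miR-29a and 3.98% with miR-7a. In vehicle cells, in the fit without the replicate number, 1 gene of these lists passed against scramble, Mknk2, at 164 CPM with miR-7a against 355 CPM (-1.07, adjusted p = 0.0261), and after LPS it was higher with miR-146a, at 301 against 190 CPM (0.65, adjusted p = 0.0481). Where same-numbered libraries deviated together, the replicate number as a block moved further counts by over 1.5 times. For LPS with miR-29a it called 7 of the 11 downstream genes in place of 4, in a fit that called 37.8% of all genes. Against scramble after LPS, where it called 9.25%, 10.7% and 10.7% of genes for the mimics of miR-7a, miR-29a and then miR-146a, it called 7 of 17, 3 of 18 and 2 of 17 early genes in place of 4, 1 and 1. In the same comparisons it called 3, 1 and 3 of the 11 downstream genes in place of 0, 0 and 1, and 2, 2 and 1 of the 11 MAP kinase kinase kinases in place of 1, 0 and 0.

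Many of these list calls lay near the threshold. Of 38 calls in the 10 pairwise comparisons, 17 were kept when any single library was left out, and all 17 were LPS differences. They were those of Egr2 with scramble, miR-7a and miR-29a, those of Egr3, Myc and Mknk2 with scramble and miR-29a, and those of Dusp7, Braf, Map3k8, Jund, Ier2, Mapkapk3, Mknk1 and Zfp36l1 with miR-29a. The other 21 calls, among them all 9 of a mimic against scramble, were lost without at least 1 library. The call of Fos with miR-7a was lost without any of the 8 libraries, that of Map3k11 without 7 of 8 in both comparisons, and those of Braf and Mapkapk3 with scramble without replicate 4 of LPS scramble alone (adjusted p = 0.0561 and 0.0579). Egr2 and Myc with miR-146a were lost without replicate 3 of vehicle miR-146a alone (adjusted p = 0.0596 and 0.0842). Against replicate 1 of vehicle miR-7a alone, the LPS values were -1.71 for Egr2, 1.15 for Fos and -0.94 for Mapkapk3, beside -1.53, 1.69 and -0.77 with the whole group. Mknk2 against scramble was -1.04 there, beside -1.07. With 1 library in the group, that setting cannot tell whether these calls hold.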

How the data were processed

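Libraries were made from rRNA-depleted total RNA, and the authors aligned and quantified them on GRCm38 with the nf-core rnaseq workflow and deposited estimated counts for 45706 genes and 32 samples. In the deposited values (unit: other) the decimal marks are lost. They were restored by a model over library size, group level and the last digits, which gave 28.5% of values above 0 lost decimals. Of the 224 member values 22 were restored, with a posterior of at least 0.996. Genes with a value under a posterior of 0.9 were left out of the comparisons concerned. As in the study's methods, pairs of groups were compared (4 for LPS, 6 for mimics) after a low-count filter (10 counts in a median-sized library, 15 in total) and TMM scaling. The voom weights (limma 3.58.1, R 4.3.3), the 3 interaction tests and calling by an adjusted p under 0.05 with no minimum fold were chosen here. Scripts were tested on simulated data.

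The study calls its replicates independent experiments and the labels give only numbers. Same-numbered libraries correlated over 0.1 in every pair in 6 of 10 comparisons (lowest 0.107). Members and lists were chosen with earlier results of these data known. Named genes were all members, up to 4 per list and comparison by smallest adjusted p, and the 3 genes most alike. Alternatives were size factors, scaling without structural RNA, no filter, limma-trend, 1 fit over 8 groups, a replicate block, a posterior of 0.99, 1 set of library sizes, values as deposited, and leaving out each library. Single-gene results of some list genes are not reported here, though the list counts include them.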

Additional observations from a re-analysis of the deposited data

Results flagged for a closer look

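Dusp1 in vehicle miR-29a-3p had 1 library far above the other 3: replicate 4 stood at 23.7 CPM and the others between 6.69 and 9.15 CPM. Dusp5 in LPS miR-146a-5p likewise had replicate 4 at 27.7 CPM with the others between 8.34 and 10.8 CPM. The gap to the nearest library was 0.855 and 0.872 of the whole range, and both exceed Dixon's 95% limit for 4 values, a limit that chance passes in about 1 of 20 groups; 56 gene-by-group sets were examined. Each of the 7 genes was also examined with each of the 3 mimics for a full change of direction over same-numbered pairs. It was sought for the mimic against scramble and for LPS against vehicle, and 1 was found. Dusp3 with miR-29a-3p was higher than scramble in 4 of 4 same-numbered pairs of vehicle libraries and lower in 4 of 4 pairs after LPS. The mean of the LPS differences minus the mean of the vehicle differences was -0.21 on the log2(CPM + 0.5) scale, and the interaction test gave -0.23 (95% interval -0.59 to 0.12, limma adjusted p = 0.861).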

How the results depend on the processing

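Over all settings but the values as deposited, the calls of Dusp2 with LPS (scramble and miR-29a-3p) and of Dusp3 (miR-29a-3p) were kept. The number of members called with LPS in scramble was 2, not 1, with median-of-ratios size factors, with scaling without structural RNA, in 1 fit over 8 groups, with the replicate block and at a posterior of 0.99, Dusp3 being the added gene (adjusted p 0.0483, 0.0443, 0.0127, 0.0283 and 0.0467). With miR-7a-5p it was 2, not 0, with no filter and with the replicate block (Dusp6 and Dusp16), of which the former called 8010 of 25656 genes in place of 803 of 11811, and with miR-146a-5p it was 1 in the fit over 8 groups (Dusp2, adjusted p = 0.0369, where 877 genes in place of 541 were called). Against scramble in vehicle cells, miR-7a-5p and miR-146a-5p each gave 1 call, Dusp2, in that fit (adjusted p 0.0157 and 0.00843, where 161 genes in place of 32 and 1532 in place of 275 were called over the whole table) and with the replicate block (0.0251 and 0.0313). After LPS the block gave 2 calls with miR-7a-5p, 1 with miR-29a-3p and 1 with miR-146a-5p. Same-numbered libraries did not all correlate over 0.1 for LPS with miR-7a-5p or miR-146a-5p (lowest 0.0595 and 0.0653). Nor did they all for these mimics against scramble in vehicle cells (lowest -0.0684 and 0.0660). On average they correlated at 0.114, 0.154, 0.0719 and 0.144 in that order, and whether the number pairs these libraries was not settled. There the block also called more list genes: 5 of 17 early and 3 of 11 downstream genes in place of 2 and 1 for LPS with miR-7a (15% of all genes called), 4 of 16 early genes, 1 MAP kinase kinase kinase and 2 downstream genes in place of 0, 0 and 1 for miR-7a in vehicle cells (3.06%), and 1 MAP kinase kinase kinase and 1 downstream gene in place of 0 and 0 for miR-146a in vehicle cells (7.79%). The block changed no other call of the 7 genes.

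With values as deposited no member was called (0 with scramble and 0 with miR-29a-3p), Dusp2 with miR-29a-3p turned to 0.32, and the highest group means became 0.0384 CPM (Dusp1), 30.4 (Dusp2), 121.0 (Dusp3), 0.296 (Dusp4), 0.0291 (Dusp5), 0.0113 (Dusp6) and 16.8 (Dusp16), as that setting leaves the lost decimals in the values and the library totals. Without TMM the highest mean of Dusp16 was 37.7 CPM. Leaving out 1 library gave 1 to 2 calls for LPS with scramble, 0 to 1 with miR-7a-5p, 2 to 3 with miR-29a-3p and 0 to 1 for miR-146a-5p in vehicle cells. Dusp6 rests on 0 to 96 counts a library, and every comparison on 4 libraries a group.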
